A study of Mus musculus with 32 samples.

Results

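Blood clotting is started and dissolved by a small set of proteins, and 9 genes that encode them were followed across lung mononuclear phagocytes. They were taken by symbol from the deposited expression table, which lists 24940 genes, and all 9 were found there. F3 (tissue factor) is the cell-surface trigger of clotting, F7 is the protease it binds, and Tfpi is the inhibitor of that complex. F10 and F5 form the protease and cofactor pair that makes thrombin, and F13a1 is the catalytic chain of the transglutaminase that cross-links fibrin. Thbd (thrombomodulin) turns thrombin towards the anticoagulant protein C pathway. Plau (urokinase) and its receptor Plaur activate plasminogen, the protease that dissolves fibrin, at the cell surface. The liver makes most circulating clotting factors, whereas macrophages and monocytes can make several of these proteins locally, so that the cell types of the lung can differ in which step they supply.

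RNA-seq and ATAC-seq were made from mice of the inbred strains C57BL6J and DBA2J, with no treatment named in the labels. Lung cells were sorted by flow cytometry on SiglecF, CD64, Ly6c, Ly6g, CD11b, CD11c, F4/80 and CD45 into 4 types. These are the macrophages of the air spaces (alveolar, AM) and of the tissue (interstitial, IM) and the monocytes named patrolling (pMo) and inflammatory (iMo). Each of the 8 groups of cell type and strain had 2 RNA libraries, 16 in all, and 1 deposited list of ATAC-seq peaks, a map of accessible chromatin made from both of its libraries. Some labels call the iMo samples inflammatory macrophages. Age and sex are not given in the sources used here, no label says that the 2 libraries of a group came from separate mice, and p-values therefore measure only the spread between these libraries.

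Depth ran from 6676151 to 22616630 reads per RNA library. The marker lists summed highest in their labelled types. They were chosen with earlier results of these data known and are no independent check of the labels. The 8 AM markers summed to between 1594 and 2360 TPM in AM (a level scaled to gene length and library size) and to at most 815 TPM elsewhere. The 8 IM markers summed to at least 7164 TPM in IM and at most 2808 TPM elsewhere, the 6 iMo markers to at least 2242 TPM in iMo and at most 1843 TPM elsewhere, and the 7 pMo markers to at least 4266 TPM in pMo and at most 2027 TPM elsewhere. The IM libraries stood apart by other cells' genes. The 9 neutrophil markers summed to between 2294 and 3777 TPM in IM and to at most 15.0 TPM in the other types, with Ly6g at 2.15 TPM or less. Pf4, which platelets and some macrophages express, averaged 555 TPM in C57BL6J IM and 230 TPM in DBA2J IM and made up most of the platelet list there. The 9 endothelial markers summed to between 40.8 and 377 TPM in IM and to between 20.2 and 157 TPM in AM. The 2 C57BL6J IM libraries also differed most from each other, with an SD of 0.885 for the log2 difference of a gene between them, against 0.414 in C57BL6J AM.

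The TPM values are relative to the span of each gene from start to end, introns included, so that a level of 1 TPM stood for 138 to 697 reads of F13a1, whose span is 182 kb, and for 2.82 to 14.2 reads of Thbd, whose span is 3.72 kb. Levels were for this reason compared between samples and never between genes. Differences are given on the log2(TPM + 1) scale with their standard error (SE), and a gene is called at an adjusted p under 0.05 in limma over the 12277 genes whose mean reached 1 TPM. Of the 9 genes 7 passed that filter. F3 with a mean of 0.242 TPM and Tfpi with a mean of 0.736 TPM did not, and they are described from reads. Because 1 read is worth a fixed step of TPM in each library, whole reads per gene could be computed back, and limma voom was run on them over 14812 genes. That second analysis was added after the data were seen. The median gene was lower in AM on the TPM scale, at -0.68 against IM, -0.55 against iMo and -0.42 against pMo, and stood at -0.18, 0.10 and 0.12 on reads. Differences of AM are to be read against these shifts.

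The stretches of 200 bases before the transcription start of 6 of the genes are printed because accessibility and RNA of these genes are compared below. They come from RefSeq on GRCm38.p6, run 5′ to 3′ in the direction of the gene, and hold the reference genome's sequence only. Of the 9 genes 7 had an entry, and Thbd and Plau had none. Tfpi and F13a1 had 2, of which the entry at the start in the deposited table is printed for F13a1. The neighbours F7 (chr8:13025834-13026033, plus strand) and F10 (chr8:13037108-13037307, plus strand) contrast a start that is rarely in a peak with a start that is in a peak everywhere. F5 (chr1:164151635-164151834, plus strand) and F3 (chr3:121723337-121723536, plus strand) differed between strains. F13a1 (chr13:37049214-37049413, minus strand) had abundant RNA with almost no peak at its start, and Plaur (chr7:24462283-24462482, plus strand) had RNA and a peak in every group.
F7: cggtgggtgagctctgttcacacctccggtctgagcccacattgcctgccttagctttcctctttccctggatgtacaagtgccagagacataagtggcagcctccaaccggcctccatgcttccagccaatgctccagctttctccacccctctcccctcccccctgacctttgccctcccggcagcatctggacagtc
F10: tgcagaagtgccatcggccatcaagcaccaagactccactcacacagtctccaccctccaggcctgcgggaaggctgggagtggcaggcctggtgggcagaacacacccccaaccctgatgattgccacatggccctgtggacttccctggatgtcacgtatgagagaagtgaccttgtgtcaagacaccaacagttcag
F5: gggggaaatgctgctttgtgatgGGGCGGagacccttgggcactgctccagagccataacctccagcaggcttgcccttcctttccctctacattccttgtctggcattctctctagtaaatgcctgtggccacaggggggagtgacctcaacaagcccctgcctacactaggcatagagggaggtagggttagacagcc
F3: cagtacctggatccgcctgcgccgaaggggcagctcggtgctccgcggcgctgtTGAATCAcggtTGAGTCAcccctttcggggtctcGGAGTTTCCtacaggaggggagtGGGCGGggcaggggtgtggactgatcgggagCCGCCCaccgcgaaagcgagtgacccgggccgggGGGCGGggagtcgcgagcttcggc
F13a1: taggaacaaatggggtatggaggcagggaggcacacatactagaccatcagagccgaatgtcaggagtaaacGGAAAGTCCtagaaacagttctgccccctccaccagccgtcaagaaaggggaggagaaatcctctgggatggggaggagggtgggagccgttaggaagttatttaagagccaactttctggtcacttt
Plaur: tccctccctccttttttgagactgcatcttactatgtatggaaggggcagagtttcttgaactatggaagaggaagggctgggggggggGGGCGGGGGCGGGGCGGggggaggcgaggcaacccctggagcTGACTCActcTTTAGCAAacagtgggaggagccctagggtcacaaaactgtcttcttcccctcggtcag
Capitals mark letters of motifs that were searched on both strands. In F3 these are 2 AP-1 motifs (TGANTCA) at positions -146 and -135 from the start, an NF-kB motif (GGANTTTCC) at -112, and 3 GC boxes (GGGCGG) at -89, -58 and -24. In Plaur they are an AP-1 motif at -69, a C/EBP motif (TTGCNNAA) at -59 and 3 GC boxes at -111, -105 and -100, of which the last 2 share a base. F5 held a GC box at -177 and F13a1 an NF-kB motif at -128. No capital stands in F7 or F10. Of 32851 promoters of 300 bases in the same table, 7.81% held the AP-1 letters, 1.25% the NF-kB letters, 10.8% the C/EBP letters and 35.7% the GC box. The letters of PU.1 (GAGGAAGT, 3.20%), the TATA box (TATAAA, 13.6%), the E-box (CACGTG, 7.15%) and Egr1 (GCGTGGG, 5.04%) were searched as well. They gave no match within the 200 bases printed, but in the 50 bases after the start F13a1 held the PU.1 letters at 15 and F3 the TATA box letters at 44, on the other strand. Nothing follows for a factor from a motif that was not found. A match describes letters and not a bound factor.

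F7 (chr8:13026034-13035805 on mm10, plus strand), the protease that starts clotting with tissue factor, was largely a gene of alveolar macrophages. Its level was 342 and 299 TPM in the C57BL6J AM libraries and 415 and 401 TPM in the DBA2J AM libraries. In IM it was 38.2 and 68.6 TPM in C57BL6J and 19.0 and 28.7 TPM in DBA2J. All 8 monocyte libraries lay between 1.47 and 4.71 TPM, so that AM, IM and monocytes did not overlap, and iMo and pMo did. The mean was 364 ± 53.7 TPM for AM (SD, n = 4), 38.6 ± 21.5 for IM, 1.79 ± 0.32 for iMo and 2.70 ± 1.41 for pMo. In limma the log2 difference was 3.34 ± 0.25 (SE) between AM and IM (adjusted p = 6.92e-07), 7.03 ± 0.25 between AM and iMo (1.63e-09) and 6.68 ± 0.25 between AM and pMo (2.74e-09). IM stood above iMo by 3.68 ± 0.25 (adjusted p = 1.09e-06). In these bulk samples fewer cells of a type and less RNA per cell cannot be told apart.

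The level of F7 in IM went with the AM markers there. Those markers summed to between 472 and 815 TPM in C57BL6J IM and to between 128 and 172 TPM in DBA2J IM, and F7 averaged 53.4 and 23.8 TPM in the same groups. In C57BL6J iMo the AM markers summed to between 165 and 203 TPM, more than in some DBA2J IM libraries, and F7 averaged 2.00 TPM. The other monocyte groups had at most 57.4 TPM of these markers. The part of the AM markers in the F7 level of IM was not tested. The strain difference of F7 in IM, DBA2J minus C57BL6J, was -1.10 ± 0.36 and missed the threshold (adjusted p = 0.0739), whereas limma voom on reads gave -1.16 ± 0.28 (adjusted p = 0.0126). In AM the libraries of DBA2J were all higher than those of C57BL6J, by 0.35 ± 0.36 on the log2 scale (adjusted p = 0.890).

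F3 (chr3:121723537-121735052, plus strand), the receptor that F7 acts with, was close to the detection limit in every group. No read fell on F3 in either AM or either IM library of C57BL6J, which for 3 reads over each pair of libraries allows up to 0.116 RPM (reads scaled to a common library size) in AM and 0.227 in IM, counting error only and with ribosomal entries left out of the library size. The DBA2J AM libraries held 20 and 28 reads and the DBA2J IM libraries 16 and 10 reads. Among the monocytes the counts were 1 and 2 in C57BL6J iMo, 0 and 5 in C57BL6J pMo, 0 and 0 in DBA2J iMo and 0 and 1 in DBA2J pMo. F3 was thus seen in both macrophage types of DBA2J and in neither of C57BL6J. The DBA2J mean stood at 13.5-fold the limit of 3 reads in AM and at 6.24-fold in IM. These ratios leave out the counting error of the DBA2J reads and the spread between libraries. Limma voom on reads called both (adjusted p = 0.00678 in AM and 0.0287 in IM), with at most 28 reads behind any value. The call in AM was lost in 2 and the call in IM in 3 of the 16 fits that left out a library. Markers of fibroblasts and endothelial cells were higher in DBA2J AM, as F3 was. The 7 fibroblast markers summed to between 0.294 and 0.483 TPM in C57BL6J AM and between 4.06 and 4.56 TPM in DBA2J AM. The 9 endothelial markers summed to between 20.2 and 26.7 TPM and between 77.0 and 157 TPM. In IM the same lists ran from 3.21 to 14.6 and from 228 to 377 TPM in C57BL6J, and from 1.67 to 10.6 and from 40.8 to 212 TPM in DBA2J, so that the fibroblast sums overlapped and the endothelial sums were lower in DBA2J. The 8 epithelial markers went the other way in AM, with 26.2 to 28.0 TPM in C57BL6J and 6.5 to 7.5 TPM in DBA2J. In IM they ran from 34.4 to 83.1 TPM in C57BL6J and from 17.8 to 39.8 TPM in DBA2J. The part of such cells in the F3 reads was not tested.

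Tfpi (chr2:84432860-84474174, minus strand), the inhibitor of the F3 and F7 complex, ran the other way between the strains. It had 110 and 187 reads in C57BL6J AM against 34 and 63 in DBA2J AM, and 91 and 111 reads in C57BL6J IM against 14 and 25 in DBA2J IM. In iMo it had 27 and 22 reads against 2 and 4, and in pMo 43 and 26 reads against 1 and 2. Within each of the 4 cell types both C57BL6J libraries were above both DBA2J libraries. In RPM the C57BL6J mean was 3.60-fold the DBA2J mean in AM (11.4 against 3.17), 7.63-fold in IM (15.6 against 2.05) and 8.27-fold in iMo (3.15 against 0.381), while pMo stood at 3.30 against 0.128 with 3 DBA2J reads in all. In limma voom the log2 difference, DBA2J minus C57BL6J, was -3.08 ± 0.35 as the mean of the cell types (adjusted p = 7.97e-06). It was -1.91 ± 0.34 for AM (0.00154), -2.86 ± 0.48 for IM (0.00100), -3.22 ± 0.84 for iMo (0.0404) and -4.33 ± 0.93 for pMo (0.00901). The iMo call was kept in 6 of 16 fits that left out a library and rests on 6 DBA2J reads, the pMo call was kept in 14 of 16, and the AM, IM and mean calls were kept in all 16.

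On the log2(TPM + 1) scale without a filter the same Tfpi differences were smaller, since most of its levels lay below 1 TPM. In limma the mean difference was -0.83 ± 0.07 (adjusted p = 5.96e-05). The difference was -1.43 ± 0.14 in IM (2.66e-04) and -0.67 ± 0.14 in AM (0.0347), both called. In iMo (-0.59 ± 0.14, adjusted p = 0.0754) and pMo (-0.62 ± 0.14, 0.0558) it missed the threshold. The AM call was lost in some fits that left out a library. The iMo and pMo calls thus rest on the analysis of reads. Endothelial cells are a known source of Tfpi. Their 9 markers summed to between 20.2 and 26.7 TPM in C57BL6J AM. In DBA2J AM they summed to between 77.0 and 157 TPM, the opposite direction to Tfpi. They were lower in DBA2J, as Tfpi was, in IM (228 to 377 TPM in C57BL6J, 40.8 to 212 TPM in DBA2J). The same held in iMo (40.2 to 45.9 TPM in C57BL6J, 21.6 to 26.7 TPM in DBA2J). In pMo the ranges overlapped (41.2 to 50.3 TPM in C57BL6J, 23.9 to 43.7 TPM in DBA2J). The part of such cells in the Tfpi level was not tested. Across types Tfpi was higher in AM than in iMo by 2.52 ± 0.45 and in IM than in iMo by 2.44 ± 0.48 (adjusted p = 1.58e-04 and 6.87e-04 in limma voom). The interval between AM and IM spanned 0, at 0.08 ± 0.29 (adjusted p = 0.827).

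**Figure D1:**
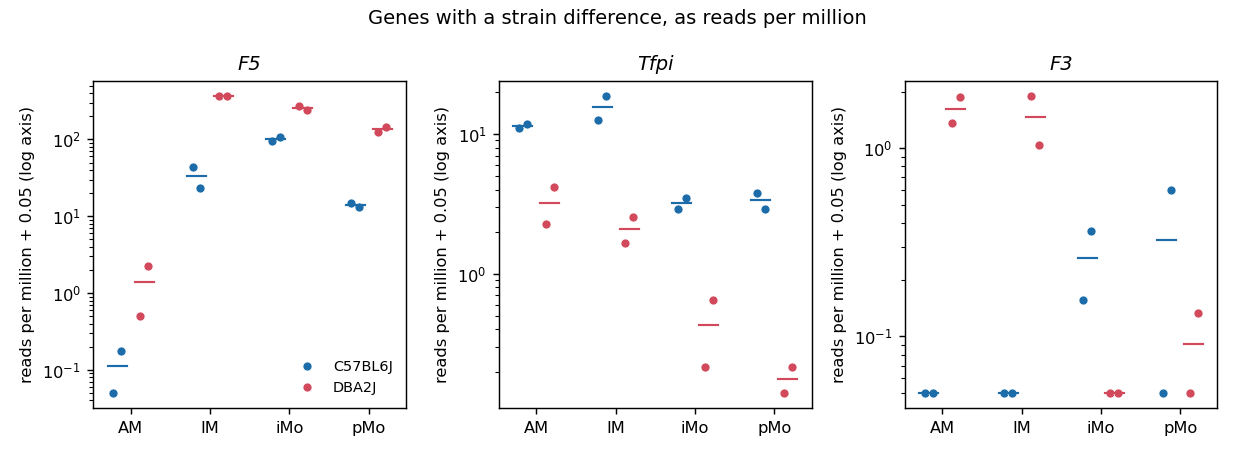
RPM of F5, Tfpi and F3 in each RNA library, plus 0.05 so that libraries without a read can be drawn on the log axis, by cell type (x axis) and strain (colour); points are libraries and short lines the means of 2. F5 is higher and Tfpi lower in both DBA2J libraries of every cell type, and F3 has reads in the DBA2J but not in the C57BL6J libraries of AM and IM.

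F10 (chr8:13037308-13056676, plus strand), the protease that cuts prothrombin, was high in AM and in iMo and low in IM and pMo. AM held 35.1 and 30.0 TPM in C57BL6J and 39.7 and 32.0 TPM in DBA2J. The iMo libraries held 42.0 and 34.4 TPM in C57BL6J and 19.4 and 20.7 TPM in DBA2J. IM lay between 9.01 and 13.6 TPM and pMo between 11.2 and 16.5 TPM, and these did not overlap with AM or iMo. AM exceeded IM by 1.52 ± 0.14 (adjusted p = 2.83e-06, limma) and pMo by 1.35 ± 0.14 (6.30e-06), and iMo exceeded pMo by 1.06 ± 0.14 (2.07e-04). AM and iMo differed by 0.29 ± 0.14 (adjusted p = 0.0826) on TPM and by 1.04 ± 0.15 on reads (adjusted p = 1.28e-05), so that AM stood above iMo on both scales but was called on reads alone.

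The strains differed in F10 in iMo only by a fragile margin. C57BL6J iMo averaged 38.2 ± 5.33 TPM (SD, n = 2) and DBA2J iMo 20.1 ± 0.95 TPM, a difference of -0.89 ± 0.19 (adjusted p = 0.0273, limma). Leaving out any of the 4 iMo libraries ended this call (adjusted p = 0.0578 without the second C57BL6J library and between 0.126 and 0.141 without each other), as did median-of-ratios scaling (0.117). A test of whether the strain difference varied with cell type gave an adjusted p of 0.0706. Immediate early genes, 21 genes that respond to handling and stimuli, summed to between 7534 and 8295 TPM in C57BL6J iMo and between 4894 and 5318 TPM in DBA2J iMo, and their part in the iMo differences was not tested.

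F5 (chr1:164151835-164220277, plus strand), the cofactor of F10, was higher in DBA2J. In IM it was 4.86 and 2.39 TPM in C57BL6J and 40.6 and 41.1 TPM in DBA2J. In iMo it was 9.80 and 13.3 TPM against 30.0 and 23.1 TPM, and in pMo 1.41 and 1.47 TPM against 10.0 and 15.8 TPM. AM had 0 and 2 reads in C57BL6J and 7 and 34 reads in DBA2J. In all 4 types both DBA2J libraries were above both C57BL6J libraries. The fold between the strain means in TPM was 11.3 in IM, 8.95 in pMo and 2.30 in iMo.

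In limma the F5 strain difference was 3.23 ± 0.28 in IM (adjusted p = 5.57e-05), 2.48 ± 0.28 in pMo (4.73e-04), 1.14 ± 0.28 in iMo (0.0523) and 1.74 ± 0.14 as the mean of the types (9.55e-06). The IM, pMo and mean calls held in all 16 fits that left out a library. On reads the difference was also called in iMo (1.35 ± 0.20, adjusted p = 7.12e-04), as it was with median-of-ratios scaling of TPM (0.00353), and in AM it was 3.48 ± 1.41 (adjusted p = 0.141). Whether the difference varied with cell type came out differently on the 2 scales. The adjusted p of that interaction was 0.00415 on log2(TPM + 1), where AM contributes 0.12 because its levels lie far below 1 TPM, and 0.588 on reads. In the IM libraries the 6 iMo markers summed to between 790 and 1077 TPM in C57BL6J and between 1805 and 1843 TPM in DBA2J, and the neutrophil markers to between 2294 and 2742 TPM and between 3376 and 3777 TPM. Both lists were higher in DBA2J IM, as F5 was, and their part in the IM difference was not tested. The neutrophil markers were low in iMo and pMo but also higher in DBA2J there, as F5 was. They summed to between 0.854 and 1.77 TPM in C57BL6J iMo and between 11.6 and 11.99 TPM in DBA2J iMo. In pMo the sums were 5.88 to 11.7 TPM in C57BL6J and 12.2 to 12.3 TPM in DBA2J. Their part in the F5 differences of iMo and pMo was not tested.

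Across types F5 was lowest in AM. On the log2(TPM + 1) scale AM differed from IM by -3.70 ± 0.20 (adjusted p = 4.41e-08, limma), from iMo by -4.14 ± 0.20 (1.31e-08) and from pMo by -2.46 ± 0.20 (9.77e-07). The iMo level exceeded the pMo level by 1.68 ± 0.20 (adjusted p = 1.18e-04). IM and iMo, which overlap in their libraries, differed by -0.43 ± 0.20 (adjusted p = 0.108), and on reads by -0.55 ± 0.16 (0.0105).

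F13a1 (chr13:36867178-37049213, minus strand), the chain that cross-links fibrin, was a gene of iMo and IM. It held 61.1 and 82.7 TPM in C57BL6J iMo and 91.7 and 66.6 TPM in DBA2J iMo. IM held 41.5 and 65.2 TPM in C57BL6J and 48.1 and 49.0 TPM in DBA2J, and all 4 pMo libraries lay between 1.47 and 3.76 TPM. In AM it was all but absent, with 3 and 4 reads in C57BL6J and 19 and 39 reads in DBA2J against between 7297 and 26734 reads in IM and iMo libraries. The 2 monocyte types thus differed 30.8-fold in their mean TPM, by 4.49 ± 0.19 in limma (adjusted p = 2.52e-07). AM differed from IM by -5.64 ± 0.19 on the log2(TPM + 1) scale and by -10.67 ± 0.78 on reads (adjusted p = 2.04e-09 and 7.48e-09), a gap that the pseudocount compresses. IM differed from iMo by -0.56 ± 0.19 (adjusted p = 0.0423), with overlapping libraries, and that call was kept in 7 of 16 fits that left out a library. The strain mean difference was 0.13 ± 0.14 (adjusted p = 0.630).

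Platelets carry F13A protein, and their markers were checked beside F13a1. The 12 platelet markers summed to between 352 and 829 TPM in C57BL6J IM and between 226 and 277 TPM in DBA2J IM, most of it Pf4, and their part in the F13a1 level of IM was not tested. They summed to between 9.13 and 22.9 TPM in iMo, where F13a1 was highest, to between 13.1 and 24.0 TPM in pMo, where it was low, and to between 11.9 and 15.6 TPM in AM. Pf4 was listed at 0 TPM in all 4 iMo libraries. Itga2b averaged at most 2.84 TPM and Ppbp at most 2.59 TPM in any group.

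Thbd (chr2:148404471-148408188, minus strand), the thrombin receptor that favours anticoagulation, was low in AM and high in the other types. AM held 53.4 and 38.6 TPM in C57BL6J and 40.2 and 67.7 TPM in DBA2J. IM held 176 and 293 TPM against 156 and 199 TPM, iMo 249 and 249 TPM against 139 and 148 TPM, and pMo 375 and 324 TPM against 197 and 225 TPM. Every AM library lay below every other library, and the libraries of IM, iMo and pMo overlapped. AM differed from IM by -2.02 ± 0.20 (adjusted p = 5.38e-06, limma), from iMo by -1.93 ± 0.20 (5.74e-06) and from pMo by -2.45 ± 0.20 (9.31e-07). On reads the Thbd differences were -1.30 ± 0.19, -1.22 ± 0.19 and -1.88 ± 0.18, all called. On reads Thbd was also lower in iMo than in pMo (-0.66 ± 0.18, adjusted p = 0.0121).

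In both monocyte types the DBA2J libraries of Thbd lay below those of C57BL6J. The difference was -0.79 ± 0.28 in iMo and -0.72 ± 0.28 in pMo, and neither passed the threshold (adjusted p = 0.184 and 0.210, limma). The mean over the types was -0.42 ± 0.14 (adjusted p = 0.0766) on TPM and -0.39 ± 0.13 (0.0479) on reads, and the latter was kept in 6 of 16 fits that left out a library. The immediate early genes were lower in the same groups, between 3976 and 4435 TPM in DBA2J pMo against 4672 and 6347 TPM in C57BL6J pMo, and their part was not tested.

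Plau (chr14:20836662-20843388, plus strand), the plasminogen activator urokinase, was highest in IM. Its levels there were 58.8 and 59.8 TPM in C57BL6J and 36.5 and 45.4 TPM in DBA2J. AM held 15.2 and 7.69 TPM against 6.09 and 6.22 TPM, iMo 6.49 and 6.28 TPM against 18.2 and 11.96 TPM, and pMo 1.79 and 4.58 TPM against 5.66 and 4.93 TPM. No IM library overlapped with any other type. AM differed from IM by -2.44 ± 0.24 (adjusted p = 5.96e-06, limma), and IM exceeded iMo by 2.22 ± 0.24 (3.66e-05) and pMo by 3.33 ± 0.24 (1.52e-06). In both strains of IM the neutrophil markers were high as well, as given above, and their part in the Plau level was not tested.

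The strain difference of Plau had opposite signs in macrophages and monocytes. DBA2J was lower in both AM and IM libraries and higher in both iMo and pMo libraries, with no overlap in any of the 4 types. The differences were -0.73 ± 0.34 for AM, -0.53 ± 0.34 for IM, 1.10 ± 0.34 for iMo and 0.67 ± 0.34 for pMo, none of them called in limma (adjusted p between 0.133 and 0.459). The interaction with cell type had an adjusted p of 0.0950 on TPM and 0.0319 on reads, and the latter was kept in 10 of 16 fits that left out a library.

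Plaur (chr7:24462483-24475968, plus strand), the receptor that holds urokinase at the cell surface, varied least among the 7 tested members. It held 117 and 109 TPM in C57BL6J AM and 104 and 106 TPM in DBA2J AM. IM lay between 57.1 and 64.2 TPM, iMo held 130 and 124 TPM in C57BL6J and 92.3 and 78.4 TPM in DBA2J, and pMo lay between 66.0 and 89.8 TPM. IM was the lowest type, and its libraries did not overlap with any other. AM exceeded IM by 0.85 ± 0.11 (adjusted p = 3.78e-05, limma) and pMo by 0.52 ± 0.11 (0.00143), and IM differed from iMo by -0.79 ± 0.11 (1.90e-04) and from pMo by -0.33 ± 0.11 (0.0291). The IM and pMo call was kept in 11 of 16 fits that left out a library, and was lost without the first library of C57BL6J IM or C57BL6J pMo, either library of DBA2J IM or the second of DBA2J pMo. The receptor was thus lowest in the type where its ligand gene Plau was highest. AM and iMo differed by 0.06 ± 0.11 on TPM (adjusted p = 0.620) and by 0.80 ± 0.12 on reads (3.17e-05), and iMo exceeded pMo on TPM (0.45 ± 0.11, adjusted p = 0.00948) but not past the threshold on reads (0.33 ± 0.13, 0.0720) or with median-of-ratios scaling (0.185).

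**Figure D2:**
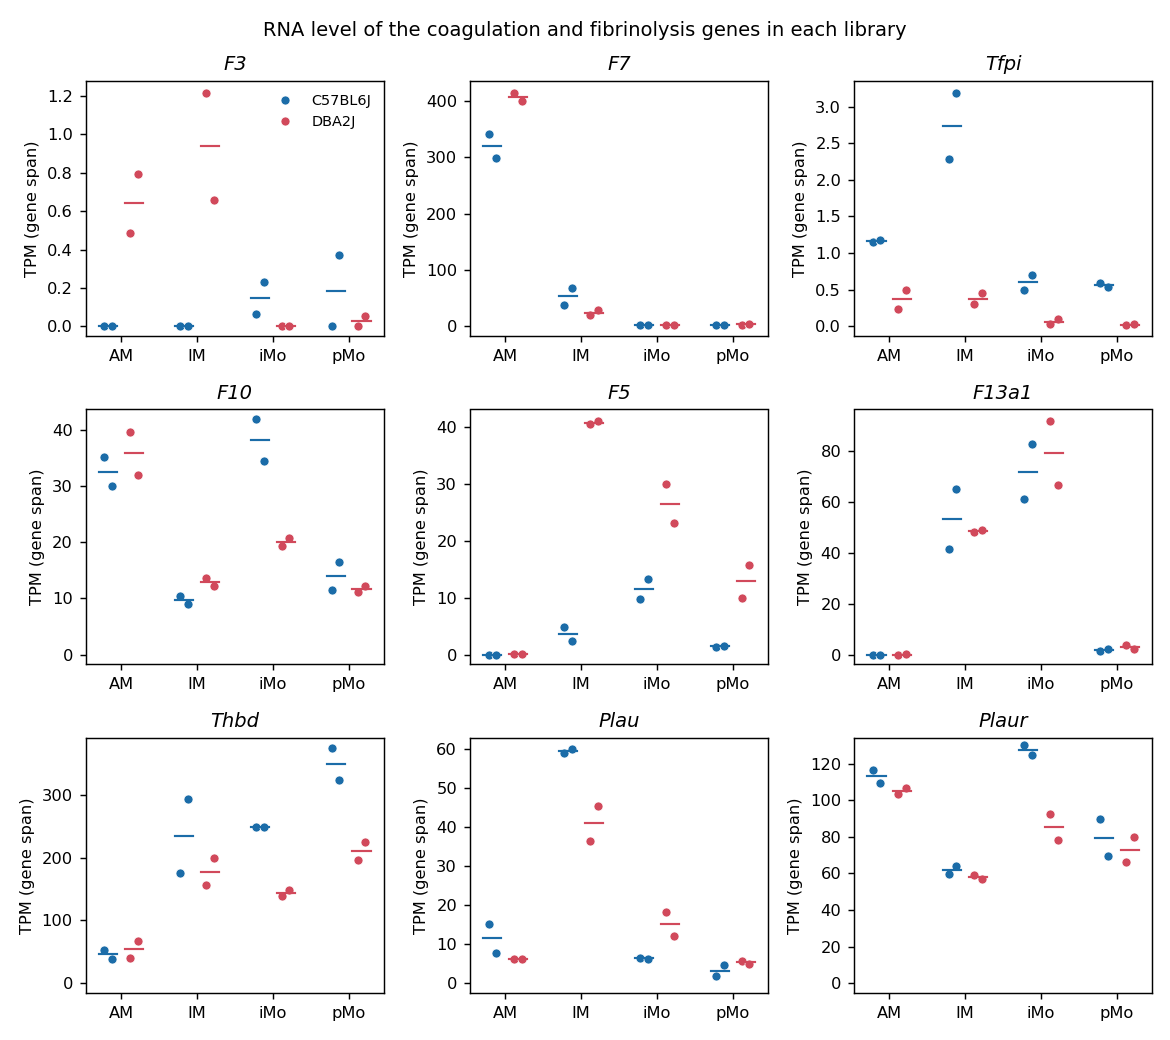
TPM (relative to gene span) of the 9 genes in each RNA library, by cell type (x axis) and strain (colour); points are libraries, short lines the means of 2, and each panel has its own linear axis. F7 is highest in AM, Plau in IM and F13a1 in IM and iMo, while Thbd is lowest in AM and Plaur in IM.

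Counted together, the 7 tested members were called often between cell types and seldom between strains, and so were the other genes. Between AM and IM 3 members were higher and 4 lower, when 9.19% of the 12277 genes were called higher and 61.1% lower. Between AM and iMo 1 was higher and 3 lower (11.9% and 54.3% of all genes), and between AM and pMo 4 were higher and 3 lower (15.2% and 46.6%). The excess of lower genes in AM goes with the share of summed TPM that the ribosomal entries Rn45s and Mir6236 took, 64.3% to 67.6% in AM libraries against 22.6% to 57.4% in the others. On reads, counted without these entries, 4 members were higher and 3 lower between AM and iMo, with 29.2% and 25.7% of 14812 genes. IM against iMo gave 2 higher and 3 lower (21.7% and 15.6%), IM against pMo 4 and 1 (30.3% and 9.2%), and iMo against pMo 5 and 0 (18.9% and 6.36%), with 6 members at an unadjusted p under 0.05. On reads 4 members were higher and 1 lower between iMo and pMo (13.3% and 10.2% of 14812 genes). These comparisons share libraries and are not independent of each other. The members' median log2 difference was -2.02 between AM and IM against -0.68 over all genes, -0.23 against -0.55 between AM and iMo, and 0.52 against -0.42 between AM and pMo. On reads, over 9 members, the same medians were -0.37 against -0.18, 0.80 against 0.10 and 1.23 against 0.12, and with median-of-ratios scaling of TPM -1.13 against 0.06, 0.42 against 0.02 and 1.04 against 0. The sign between AM and iMo thus turned with the scale.

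Between strains 1 of 7 members was called as the mean of the cell types (F5; 11.7% of all genes), 0 in AM (3.28%), 1 in IM (F5; 10.5%), 1 in iMo (F10; 3.47%) and 1 in pMo (F5; 3.66%), and the interaction called 1 (F5; 4.03%). In AM limma also gave 0 members at an unadjusted p under 0.05. On reads, with 9 members tested, 3 were called as the mean (F5, Tfpi and Thbd; 16.0% of 14812 genes), 2 in AM (F3 and Tfpi; 10.1%), 4 in IM (F3, F5, F7 and Tfpi; 14.3%), 3 in iMo (F5, F10 and Tfpi; 3.67%) and 2 in pMo (F5 and Tfpi; 6.48%). The interaction on reads called 3 (F3, F7 and Plau; 8.93%). Tfpi was the only member called between strains in each of the 4 cell types on reads. These counts moved when a library was left out: the mean ran from 2 to 5, AM from 1 to 3, IM from 2 to 4, iMo from 1 to 3, pMo from 1 to 2 and the interaction from 0 to 3. The mean reached 5 without the second C57BL6J pMo library. AM fell to 1 without the first C57BL6J AM library, IM to 2 without the second C57BL6J or the first DBA2J IM library, and pMo to 1 without the first DBA2J pMo library. In iMo the count was 1 without either library of C57BL6J AM, C57BL6J pMo, DBA2J iMo or DBA2J pMo or the first of C57BL6J iMo. The interaction called 0 without the first DBA2J iMo library and 1 without the second, the second of C57BL6J AM, the first of DBA2J IM or the first of DBA2J pMo.

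**Figure D3:**
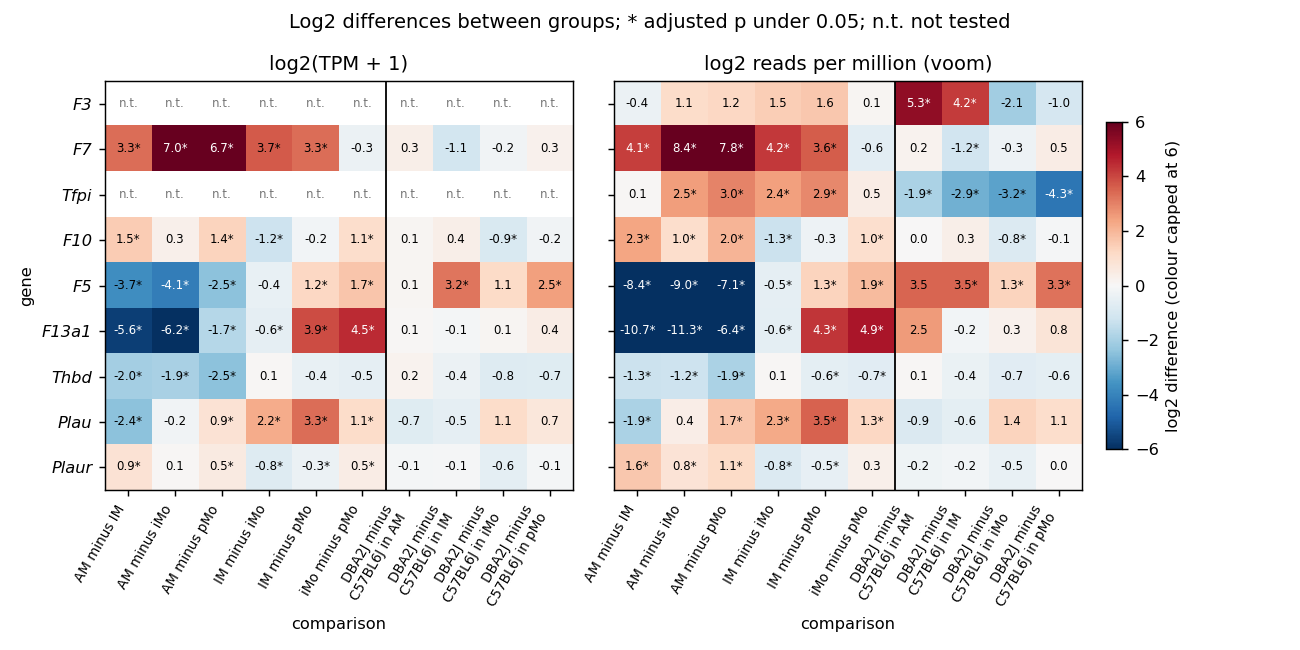
Log2 differences of the 9 genes (rows) in 6 comparisons of cell types and in 4 of strains within a type (columns), from limma on log2(TPM + 1) at left and from limma voom on reads at right; colour is capped at 6, asterisks mark an adjusted p under 0.05 and n.t. genes that were not tested. The fitted values of F3, and of F5 and F13a1 in AM, rest on groups with few or no reads and are no measure of fold; the strain columns of Tfpi are called in all 4 types at right.

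The genes most like each member were sought across the 8 group means of log2(TPM + 1). Among 7703 candidate genes the closest to F7 were Nav2, Mgll and Slc9a4, each with a Pearson r of 0.997. F5 lay closest to Tlr11 (0.970), Pdlim2 (0.957) and Rfk (0.955), and F13a1 to Ube2l3 (0.990), Atp6ap1 (0.990) and B3gnt9 (0.983). Thbd lay closest to Cd48 (0.993), Ino80d (0.992) and Hif1an (0.990), and Plau to Gna12 (0.984), P2ry12 (0.968) and Bicd2 (0.966). F10 lay closest to Timm8b (0.963), Rex1bd (0.944) and the member Plaur (0.942), and Plaur to Ndufa2 (0.984), Fam221b (0.962) and Mrpl2 (0.959). Rex1bd, Ndufa2 and Mrpl2 were among the 6 closest to both F10 and Plaur. These values describe 8 means that share 4 cell types, and the genes nearest to a member are chosen as the highest of many.

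The other genes of clotting and fibrinolysis were read from a list of 52, of which 24 passed the filter. The fibrinogen genes Fga and Fgg, made by the liver, were listed at 0 TPM in all 4 cell types. Between AM and IM 6 of the 24 were higher and 10 lower as deposited (9.19% and 61.1% of all genes), but 13 were higher and 5 lower with median-of-ratios scaling (33.1% and 28.8% of all genes). Among those lower in AM than in IM were Gas6, a vitamin K-dependent ligand (-4.77 ± 0.23 in limma on log2(TPM + 1)), Thbs1, a matrix protein released by platelets and monocytes (-4.24 ± 0.26), Hpse, the heparanase (-3.33 ± 0.28), and Eno1, a plasminogen-binding enolase (-1.25 ± 0.10). Gas6 was almost confined to IM among these libraries, at 38.0 ± 28.2 TPM against at most 0.651 TPM in any group of the other types.

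Against iMo, 9 of the 24 were higher in AM and 8 lower (11.9% and 54.3% of all genes). Vwf, the adhesive carrier of factor VIII, was higher by 2.68 ± 0.16 and Procr, the protein C receptor, by 2.37 ± 0.34. Hpse (-5.13 ± 0.28) and Thbs1 (-4.89 ± 0.26) were lower in AM, by more than these. Within AM the strain difference, DBA2J minus C57BL6J, was 1.61 ± 0.48 for Procr and -0.25 ± 0.23 for Vwf (adjusted p = 0.124 and 0.874, limma). The endothelial markers were higher in DBA2J AM, as given above, and their part in the Procr and Vwf levels was not tested. Against pMo 11 were higher in AM and 6 lower (15.2% and 46.6% of all genes). Among the higher were the plasminogen-receptor pair S100a10 (2.42 ± 0.20) and Anxa2 (1.68 ± 0.10) and the vitamin K reductase Vkorc1 (1.85 ± 0.31). Hpse was lower (-3.32 ± 0.28). IM against iMo gave 7 higher and 5 lower (21.7% and 15.6% of all genes). Gas6 (4.95 ± 0.23), Vwf (1.92 ± 0.16) and Plgrkt, a plasminogen receptor (1.53 ± 0.17), were higher in IM, and Hpse was lower (-1.80 ± 0.28). IM against pMo gave 12 higher and 1 lower (30.3% and 9.2% of all genes). Gas6 (4.49 ± 0.23) and Thbs1 (2.68 ± 0.26) were among the higher. The 2 monocyte types differed in 12 of 24, 9 higher and 3 lower in iMo (18.9% and 6.36% of all genes). Thbs1 (3.32 ± 0.26), S100a10 (2.26 ± 0.20), Hpse (1.81 ± 0.28) and Anxa5, the annexin that shields membrane phospholipid (1.19 ± 0.12), were higher in iMo, and Vwf was lower (-1.99 ± 0.16). After median-of-ratios scaling the counts were 14 higher and 4 lower between AM and iMo (27.7% and 28.3% of all genes) and 15 and 5 between AM and pMo (29.4% and 30.2%). They were 6 and 6 between IM and iMo (20.4% and 25.3%), 9 and 5 between IM and pMo (20.1% and 23.8%), and 7 and 5 between iMo and pMo (12.7% and 12.7%).

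Between strains, 1 of the 24 was called as the mean of the types (11.7% of all genes). It was the thrombin receptor gene F2rl2 (0.67 ± 0.19, adjusted p = 0.0441, limma). In AM, iMo and pMo limma called 0 (3.28%, 3.47% and 3.66% of all genes) and gave 5, 1 and 2 at an unadjusted p under 0.05. Limma voom on reads called 3, 1 and 2 of 35 there (10.1%, 3.67% and 6.48% of 14812 genes). In IM 2 were higher and 4 lower in DBA2J, when 10.5% of all genes were called in either direction. Among the lower, Gas6 fell from 56.8 to 19.2 TPM (-1.40 ± 0.32, adjusted p = 0.0199, limma), Vwf from 8.68 to 3.29 TPM (-1.17 ± 0.23, 0.00951) and Lrp1, the scavenger receptor that clears protease and inhibitor complexes, from 309 to 209 TPM (-0.56 ± 0.11, 0.00797). Eno1 rose from 22.2 to 34.7 TPM (0.62 ± 0.15, 0.0219). Endothelial cells express Vwf, and their markers were also lower in DBA2J IM, as given above; their part was not tested.

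Accessible chromatin was then read at the members' starts. A peak within 500 bp of the start was listed for 39 of 72 pairs of member and peak list. By list it was 4 of 9 members in C57BL6J AM (59.8% of the tested genes had such a peak), 5 in DBA2J AM (65.6%), 7 in C57BL6J IM (82.8%), 4 in DBA2J IM (69.7%), 5 in C57BL6J iMo (71.1%), 6 in DBA2J iMo (74.3%), 4 in C57BL6J pMo (73.3%) and 4 in DBA2J pMo (70.7%). Each list is a single set per group, ranging from 24429 to 70013 peaks, so that no test across replicates was possible and a missing peak in a short list is weak evidence. F10, Thbd and Plaur had a peak at the start in all 8 lists. Tfpi had none at the start of the deposited table in any list. RefSeq holds a second Tfpi entry farther upstream, and a peak of C57BL6J IM (chr2:84476663-84476863) reaches into the 200 bases before it (chr2:84476760-84476959, minus strand). That peak stood near the end of the longest list, at a rank of 97.9%, and was in no other list.

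F10 was open at its start in every group, also where its RNA was low. The peaks joined into chr8:13037116-13037386, which covers most of the F10 stretch printed above, and in C57BL6J AM the peak stood within the top 1.64% of its list by the authors' score. A second region 1.96 kb inside the gene was also in all 8 lists. F7, whose start is upstream on the same strand, had a peak at its start in DBA2J AM only, in the lower part of that list (rank at 83.5%), although all 4 AM libraries held at least 299 TPM. The region of F7 found in all 8 lists lay 2.69 kb inside the gene (chr8:13028538-13028919) and reached the top 1.18% of its list. A region at -4.03 kb from the F7 start (chr8:13021889-13022122) was in both AM lists and in C57BL6J IM and C57BL6J pMo.

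F5 had its highest ranked peaks well before its start. Regions at -16.3 kb (chr1:164135351-164135647) and -15.7 kb (chr1:164136024-164136257) from it were in all 8 lists, AM included, where F5 RNA was nearly absent. A region at -13.02 kb was in all 6 lists of IM, iMo and pMo and in neither AM list. The peak at the F5 start was in both iMo lists, in C57BL6J IM and in DBA2J pMo, so that DBA2J IM, the group with the most F5 RNA, had no listed peak there. The list of DBA2J IM is the shortest (24429 peaks) and that of C57BL6J IM the longest (70013). In DBA2J pMo the peak stood at a rank of 99.9%. F3 had a peak centred between 134 and 169 bp after its start in both strains of IM and iMo. Neither AM list held it, although the F3 reads were found in AM and IM of DBA2J.

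Tfpi had 7 assigned regions, and none was in either AM list, although AM averaged 11.4 RPM of Tfpi in C57BL6J and 3.17 in DBA2J. The region 18.8 kb inside Tfpi (chr2:84455292-84455511) was in all 6 lists of IM, iMo and pMo, in the DBA2J lists as well, where its RNA was low. F13a1 had a peak at its start in C57BL6J IM alone, the longest list, at a rank of 85.3%, and the single F13a1 region in all 8 lists lay at -7.67 kb (chr13:37056761-37057007). AM, with almost no F13a1 RNA, had 5 and 8 regions assigned to it, and iMo, with the most, had 2 and 1. These regions were assigned to the nearest start within 100 kb, which does not show that they act on that gene.

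For Thbd, 2 regions were in all 8 lists, at the start and at -1.18 kb, and a region 5.93 kb downstream of the start (chr2:148402144-148402372) was in both pMo lists, where Thbd RNA was highest, and in C57BL6J IM and C57BL6J iMo. Plau had 15 regions and Plaur 16. Those in both strains of a type numbered 7 for Plau and 9 for Plaur in AM, 2 and 4 in IM, 0 and 4 in iMo, and 2 and 2 in pMo. For Plaur the regions at -13.1 kb and -10.6 kb were listed in AM alone, in both strains. IM, where Plau RNA was highest, had both strains at 9.25 kb and 36.9 kb after the start. The region at 9.25 kb was in 7 of the 8 lists, with its highest score in DBA2J AM, and the region at 36.9 kb was also in C57BL6J pMo. At the Plau start both AM lists held a peak, and of the IM lists only that of C57BL6J did. In all, 78 regions were assigned to the 9 genes, and of 186 pairs of region and cell type 96 (51.6%) had a peak in both strains.

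**Figure D4:**
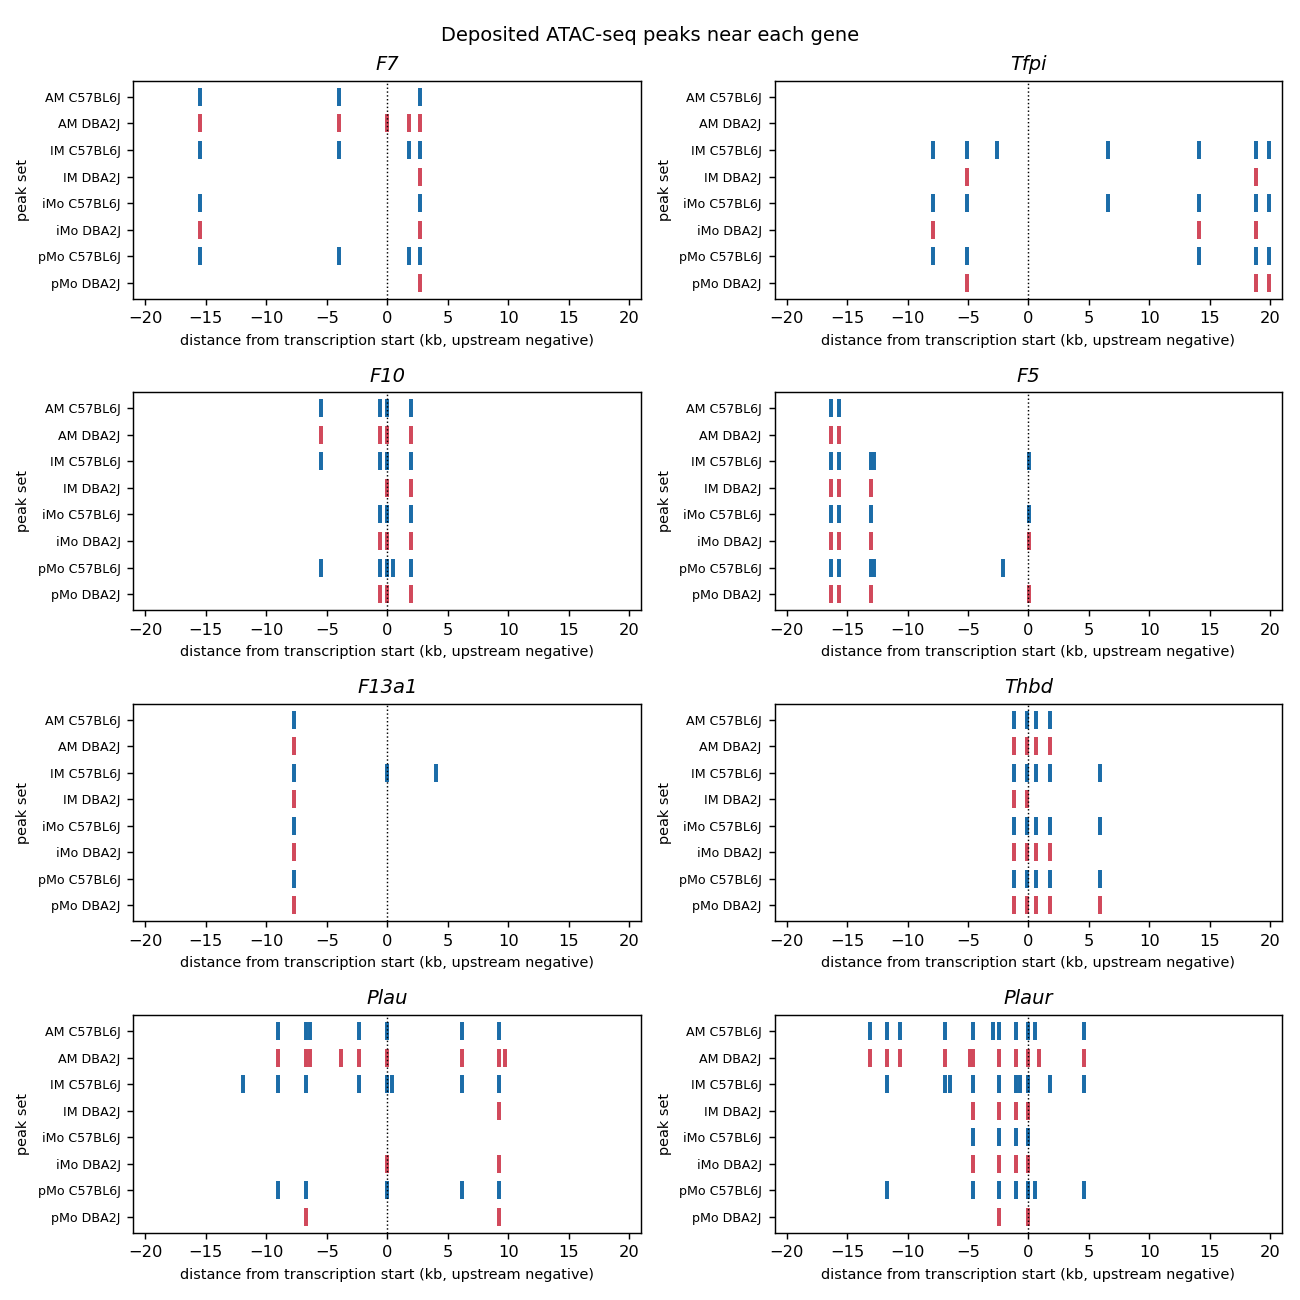
Peaks of the 8 deposited ATAC-seq lists (rows) near 8 of the genes, by distance of the region's centre from the transcription start in kb (x axis, upstream negative; regions farther than 21 kb are not drawn) and strain (colour). F10, Thbd and Plaur have a mark at the start in all 8 rows, Tfpi has no mark in the AM rows, and F5 has its 2 marks common to all rows between -16.3 and -15.7 kb.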

How the data were processed

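RNA was measured by polyA RNA-seq in 16 libraries, 2 for each of 4 cell types in 2 strains, and accessible chromatin by ATAC-seq in 8 peak lists. The authors deposited 1 table of TPM for 24940 genes, and the submitters' processing notes name STAR, Bowtie, HOMER and the build mm10, with no version or role given in the sources used here. The deposited peak lists hold positions and a score per peak, the authors' own value, whose scale is not given. Deposited TPM multiplied by the gene span was a whole multiple of 1 constant per library for 100% of the values that could be tested (tolerance 0.2), which gave whole reads per gene. Depth was 6676151 to 22616630 reads per library.

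Differences were fitted with limma 3.58.1 in R 4.3.3 on log2(TPM + 1), as a mean for each of 8 groups with a variance trend, over 12277 genes with a mean TPM of 1 or more. P-values were adjusted by Benjamini-Hochberg over all tested genes. Limma voom on the whole reads took genes with at least 10 reads in at least 2 libraries, with library sizes that leave out Rn45s and Mir6236. On simulated data 200 of 12277 genes were changed. Between AM and IM the fit recovered 67.5% of those changed by 1 on the log2 scale and 92% of those changed by 2. For the strains within IM it recovered 23.5% and 88%. Each gene had 1 normal spread for all groups. The larger spread of the C57BL6J IM libraries was not imitated, so recovery within IM may be overstated.

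The 9 genes, the pathway and marker lists and the tests were chosen with earlier results of these data known. Of the pathway list up to 5 called genes per comparison were named, by size of difference, among those whose higher group reached 5 TPM. F2rl2, Plgrkt and the other pathway genes in the text follow this rule, and Fga and Fgg were named after their values were seen. A pathway gene that the rule also names is counted with the list but not reported here by name. The closest genes are the 3 with the highest correlation among genes with a group mean of at least 10 TPM. Peaks of the lists were merged where they overlapped by 1 bp and assigned to the nearest start within 100 kb. Replicate numbers were not used to pair libraries in the main fit, and a check of pairing is given with the alternatives. Alternatives were another pseudocount (0.1), no filter, 3 other scalings, no variance trend, a replicate term, 1 strain alone, each library left out in turn, reads, and other windows and cut-offs for peaks.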

Additional observations from a re-analysis of the deposited data

Results flagged for a closer look

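The strain difference of F5 varied with cell type in limma on log2(TPM + 1), with an adjusted p of 0.00415 for the interaction. DBA2J minus C57BL6J was 3.23 ± 0.28 (SE) in IM, 2.48 ± 0.28 in pMo, 1.14 ± 0.28 in iMo and 0.12 ± 0.28 in AM. On reads the interaction had an adjusted p of 0.588, with 3.48 ± 0.25 in IM, 3.28 ± 0.28 in pMo, 1.35 ± 0.20 in iMo and 3.48 ± 1.41 in AM.

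The strain difference of F3 also varied with cell type, with an adjusted p of 0.0318 in limma without a filter on low values and 0.0274 on reads. It rests on 20, 28, 16 and 10 reads in the DBA2J macrophage libraries, 0 reads in the C57BL6J macrophage libraries and at most 5 reads in any monocyte library. On reads the call was kept in 10 of 16 fits that left out a library.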

How the results depend on the processing

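Of 2838 single-gene values recomputed under the alternatives, 48 had another sign where neither value was called. Values called under either setting turned sign in 3 comparisons. Tfpi between AM and IM was -0.40 on unfiltered log2(TPM + 1), but 0.021 after median-of-ratios scaling, 0.18 after quantile normalization, 0.0802 on reads and 0.23 on reads with median-of-ratios library sizes. Plau between AM and iMo was -0.23, but 0.69 without the ribosomal entries, and F3 between IM and iMo was 0.37, but -0.19 in C57BL6J only. In each the cause was not tested.

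Members called between AM and iMo numbered 4, but 7 without the ribosomal entries and 7 on reads with either library size; between IM and pMo they numbered 5, but 8 on reads with median-of-ratios library sizes. For the strain mean the count was 1, but 3 without a filter, 3 on reads and 2 on reads with median-of-ratios library sizes. In AM it was 0, but 1 without a filter and 2 on both read settings. In IM it was 1, but 2 after quantile normalization, 3 without a filter and 4 on both read settings. In iMo it was 1, but 2 without the ribosomal entries, 2 without both C57BL6J IM libraries, 3 on reads and 2 on reads with median-of-ratios library sizes. In pMo it was 1, but 2 on both read settings. The interaction called 1, but 2 after median-of-ratios scaling, after quantile normalization, without the ribosomal entries and without a filter, and 3 on both read settings. The settings without a filter and on reads test 9 members and not 7.

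With each library left out in turn, the count ranged from 7 to 7 between AM and IM, 4 to 5 between AM and iMo, 7 to 7 between AM and pMo, 4 to 5 between IM and iMo, 4 to 6 between IM and pMo and 5 to 6 between iMo and pMo. For strains it ranged from 1 to 2 for the mean, 0 to 0 in AM, 1 to 2 in IM, 0 to 2 in iMo, 1 to 1 in pMo and 1 to 3 for the interaction. A group left with 1 library was assumed to vary like the others. Regions assigned to members numbered 78, but 40 in the best-scored 50 percent of each list, and 96 pairs of region and cell type in both strains became 42.

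Same-numbered libraries showed little sign of pairing. Over 28 pairs of groups the correlation of their deviations had a median of 0.0176 and ran from -0.0749 to 0.200, with 5 above 0.1. Libraries of 1 mouse can share a number only within a strain. Over the 12 pairs within a strain the median was 0.0219 and the range -0.0749 to 0.146, with 2 above 0.1. Low correlations do not exclude that same-numbered libraries came from the same mice. With a replicate block the counts were 7 between AM and IM, 4 between AM and iMo, 7 between AM and pMo, 4 between IM and iMo, 5 between IM and pMo and 5 between iMo and pMo, and 1, 0, 1, 1, 1 and 1 for the strain mean, AM, IM, iMo, pMo and the interaction. Depth limits F3 throughout, Tfpi in DBA2J monocytes, and F5 and F13a1 in AM, where a few reads carry each value.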
